A study of Caenorhabditis elegans with 8 samples.

Results

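Small RNAs against 3 sperm genes of Caenorhabditis elegans, spe-41 (K01A11.4), spe-10 (AC3.10) and nspd-5 (F11G11.8), are described here in wild-type and rde-12 mutant animals. The genes were chosen from the rde-12 against N2 contrast itself, out of 1937 genes in a table of small RNA counts, so their differences were known. Those differences are therefore given as a description, with no test. The values come from 4 libraries of whole young adults grown for 50 h at 20 °C on OP50, the usual laboratory food. Of these, 2 libraries are from N2, the standard wild-type strain, and 2 are from rde-12(hj41), which carries a mutation in the gene for the DEAD-box helicase RDE-12. About 50000 worms were collected per sample, so each library is a pool, and the labels call the 2 libraries of a group biological samples. Another 4 libraries of the series, from animals eating HT115 bacteria with a sel-1 trigger, were not used here, because the table of counts per gene covers the OP50 libraries only. Counts over the table summed to between 4270098 and 5563151 per library. All 3 genes passed the filter on low counts.

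The values are not mRNA levels. They count RNAs of 20 to 26 nt that were assigned to a gene, after a treatment with TAP that lets RNAs with a triphosphate end be ligated and sequenced. In C. elegans, RNA-dependent RNA polymerases copy target transcripts into many antisense small RNAs of this kind, and Argonaute proteins carry them to silence or to license the target. The Argonautes ALG-3 and ALG-4 are known to guide small RNAs against transcripts made during spermatogenesis. Hermaphrodites make their sperm before they switch to oocytes, and the sperm are then stored in the adult. SPE-41, also called TRP-3, is a calcium-permeable TRP channel that moves to the surface of activated sperm and is needed to fertilise the oocyte. SPE-10 is a membrane protein of the palmitoyltransferase family, needed to shape the organelles that deliver the major sperm protein during sperm formation. NSPD-5 belongs to a family of small nematode-specific peptides whose genes are expressed in the male germline.

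Small RNAs against spe-41 were far scarcer in rde-12 than in N2, those against nspd-5 were moderately scarcer, and those against spe-10 overlapped between the genotypes. The counts for spe-41 were 1926 and 2013 in the N2 libraries and 1007 and 810 in the rde-12 libraries. Scaled to library size, with TMM factors and as counts relative to the library total (CPM), these were 457 and 461 CPM in N2 and 183 and 181 CPM in rde-12. Both rde-12 libraries lay well below both N2 libraries, and the replicates of each genotype lay close together. The mean level was 459 ± 2.89 CPM in N2 and 182 ± 1.32 CPM in rde-12 (mean ± SD, n = 2 each), a log2 change of −1.34 or 2.52-fold lower. The 4 ratios of an rde-12 library to an N2 library ran from 0.392 to 0.400. On the log2 scale the replicates differed by 0.013 in N2 and 0.015 in rde-12. Over the 386 genes in the same 20% band by level, the median difference was 0.063 in each genotype. The SDs of spe-41, from 2 libraries each, may therefore understate its spread. Counting error alone gave a 95% interval of 0.375 to 0.419 for the ratio of the pooled counts. Such intervals hold counting error and no other, because reads carried no molecular identifiers and several may stem from 1 molecule.

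For nspd-5 the counts were 87 and 109 in N2 and 78 and 67 in rde-12. The corresponding levels were 20.7 and 24.98 CPM in N2 and 14.2 and 15.0 CPM in rde-12. The genotypes did not overlap, but the N2 libraries stood apart from each other, by 0.27 on the log2 scale against 0.08 between the rde-12 libraries. The mean was 22.8 ± 3.06 CPM in wild type and 14.6 ± 0.571 CPM in the mutant (SD, n = 2 each), a log2 change of −0.65 or 1.57-fold lower. Ratios between single libraries ran from 0.567 to 0.725, and the counting interval from 0.509 to 0.792. In single libraries the exact 95% Poisson interval of the highest rde-12 count, 78, ran from 61.7 to 97.3, and that of the lowest N2 count, 87, from 69.7 to 107. These intervals are of raw counts in libraries of unlike depth, with totals of 5563151 for the count of 78 and 4270098 for that of 87. In CPM the library with 78 was the lower of the rde-12 libraries, so the intervals do not compare levels.

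For spe-10 the counts were 111 and 120 in N2 and 107 and 119 in rde-12. These were 26.3 and 27.5 CPM in N2 and 19.4 and 26.6 CPM in rde-12. Replicate 2 of rde-12 lay between the N2 libraries and replicate 1 lay below them, so the groups overlapped. The mean was 26.9 ± 0.813 CPM in wild type and 23.0 ± 5.06 CPM in the mutant (SD, n = 2 each), with a log2 change of −0.25. Ratios between single libraries ran from 0.706 to 1.01 and the counting interval from 0.696 to 1.01, which leaves out the spread between samples. The rde-12 replicates differed by 0.44 on the log2 scale, against a median of 0.15 over the 386 genes in the lowest 20% by level, where spe-10 and nspd-5 both fall. Without rde-12 replicate 1 the log2 change of spe-10 was −0.01, and without replicate 2 it was −0.47.

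**Figure D1:**
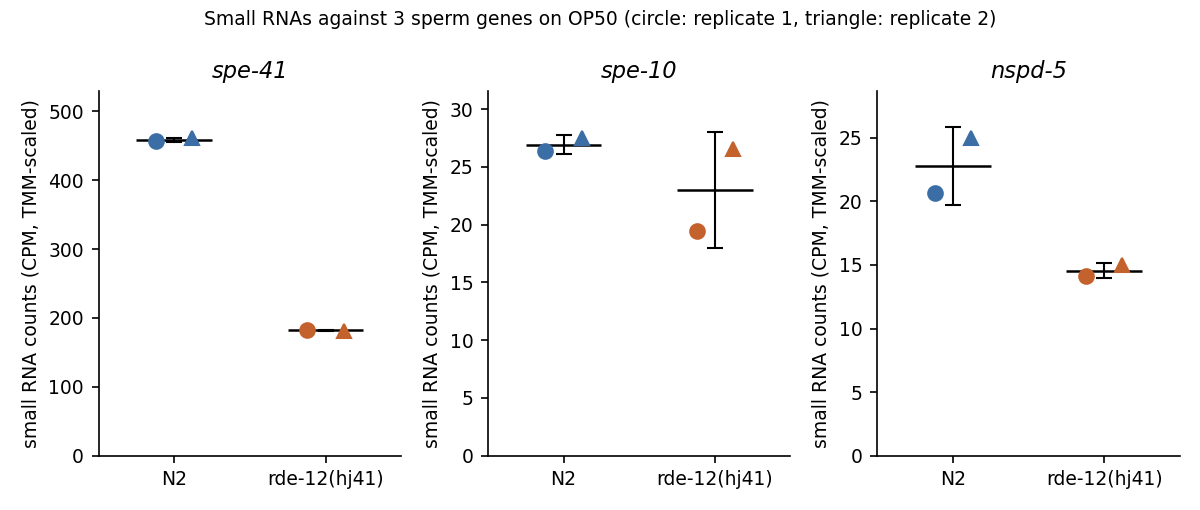
Small RNA levels against spe-41, spe-10 and nspd-5 in each OP50 library, in CPM scaled with TMM factors, with each vertical axis starting at 0. Circles and triangles are replicates 1 and 2, horizontal lines are means and bars are SD (n = 2). For spe-41 both rde-12 libraries sit near 182 CPM, below both N2 libraries near 459 CPM. For spe-10 the groups overlap.

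Of the 3 genes, spe-41 and nspd-5 had both rde-12 libraries below both N2 libraries, as did 33.4% of the 1931 genes tested. Since the genes were chosen on this contrast, nothing is read from this, and no test result is given for them. Ranked by log2 change from the lowest, spe-41 stood at place 49, nspd-5 at 93 and spe-10 at 317 of the 1931 genes.

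Levels between genes were compared per length, as CPM per kb of exon, with exon lengths from the Ensembl release 115 annotation of WBcel235. The authors' build and annotation are not named in those sources that were used. In N2 the level per kb was 168 ± 1.06 for spe-41, 106 ± 14.2 for nspd-5 and 23.2 ± 0.700 for spe-10 (SD, n = 2 each). In rde-12 it was 66.7 ± 0.483 for spe-41, 67.4 ± 2.64 for nspd-5 and 19.8 ± 4.36 for spe-10. Thus spe-41 led the 3 genes in N2, while in rde-12 spe-41 and nspd-5 did not differ beyond their spread. In both genotypes spe-10 was the lowest. The exons add up to 2727 nt in spe-41, 1161 nt in spe-10 and 216 nt in nspd-5. Among the 26 sperm genes with an exon length, by level per kb, spe-41 stood at place 9 in N2 and 18 in rde-12, nspd-5 at 13 and 17, and spe-10 at 24 in both.

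To set the 3 genes against other targets of the same kind without using library size, their counts were taken per 1000 counts summed over 24 other sperm genes in the same library. These are the measured genes named spe, msp, msd, nspd, ssp, ssq or smz. For spe-41 there were 244 and 252 per 1000 in N2 and 113 and 106 in rde-12, which is 2.26-fold lower. The genotypes stayed apart on this scale. For nspd-5 there were 11.02 and 13.6 per 1000 in N2 and 8.79 and 8.74 in rde-12, also without overlap and 1.41-fold lower. Both spe-41 and nspd-5 were chosen on these same counts, so their lack of overlap is a description and adds no support. How many other genes stay apart on this scale was not counted. For spe-10 there were 14.1 and 15.0 in N2 and 12.1 and 15.5 in rde-12, with a ratio of means of 0.949. The 2 rde-12 libraries here enclosed both N2 libraries. Without rde-12 replicate 1 the log2 change of spe-10 on this scale turned from −0.08 to 0.10.

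All 27 sperm genes together held 2379 and 2347 CPM in the N2 libraries and 1828 and 1934 CPM in the rde-12 libraries. Of the difference between the genotype means, 482 CPM, spe-41 alone made up 57.6%. The shares of nspd-5 and spe-10 were 1.71% and 0.814%, and the other 24 genes made up 39.9%. Within the counts of the 27 genes, spe-41 took 19.4% ± 0.307 in wild type and 9.68% ± 0.456 in the mutant (SD, n = 2 each). In such libraries of whole animals, fewer cells that make the RNA and less RNA per cell cannot be told apart.

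In rde-12, small RNAs fell against 5 of the 24 other sperm genes and rose against 0, at a Benjamini-Hochberg adjusted p under 0.05 over all genes in edgeR's quasi-likelihood test. This is 20.8% of the list, beside 13.9% of all genes tested that fell and 13.8% that rose. Without adjustment, 7 of the 24 (29.2%) had a p under 0.05 with a lower level and 0 with a higher one, beside 20.2% and 19.4% of all genes. DESeq2 called 2 lower (8.33%) and 0 higher, beside 8.13% and 10.7% of all genes. The count was 3 (12.5%) with library totals or upper-quartile factors in place of TMM factors, scalings under which 221 (11.44%) and 202 (10.5%) of all genes fell and 333 and 370 rose. The median log2 change of the 24 was −0.20, with a range from −0.43 to 0.05, and 23 lay below 0. Over all genes tested the median was −0.02 and 53.5% lay below 0. Libraries of the genotypes did not overlap for 12 of the 24, each lower in rde-12, which is 50.0% beside 33.4% of all genes that were lower and 30.8% that were higher without overlap. Of the other sperm genes, 12 were in the lowest 20% of genes by level, where the median log2 change over all 386 genes was −0.09. In the next bands of 20% by rising level, which held 6, 5 and 1 of the 24, it was −0.05, −0.03 and −0.01. In the highest 20% by level, which held 0 of the 24, it was 0.05. Of all genes in the lowest 20%, 60.4% lay below 0. None of the 24 had a log2 change as low as those of spe-41 and nspd-5. Those 2 genes were chosen on this contrast, so this order is a description only. With N2 replicate 1 or 2 left out, the median log2 change of the 24 was −0.14 or −0.20. With rde-12 replicate 1 or 2 left out, it was −0.11 or −0.29. With DESeq2 the share of sperm genes that fell was near that of all genes, and the number called moved with the library left out. Summed over the 24 genes, the level was 1874 and 1833 CPM in N2, and 1612 in rde-12 replicate 1 and 1712 in replicate 2.

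**Figure D2:**
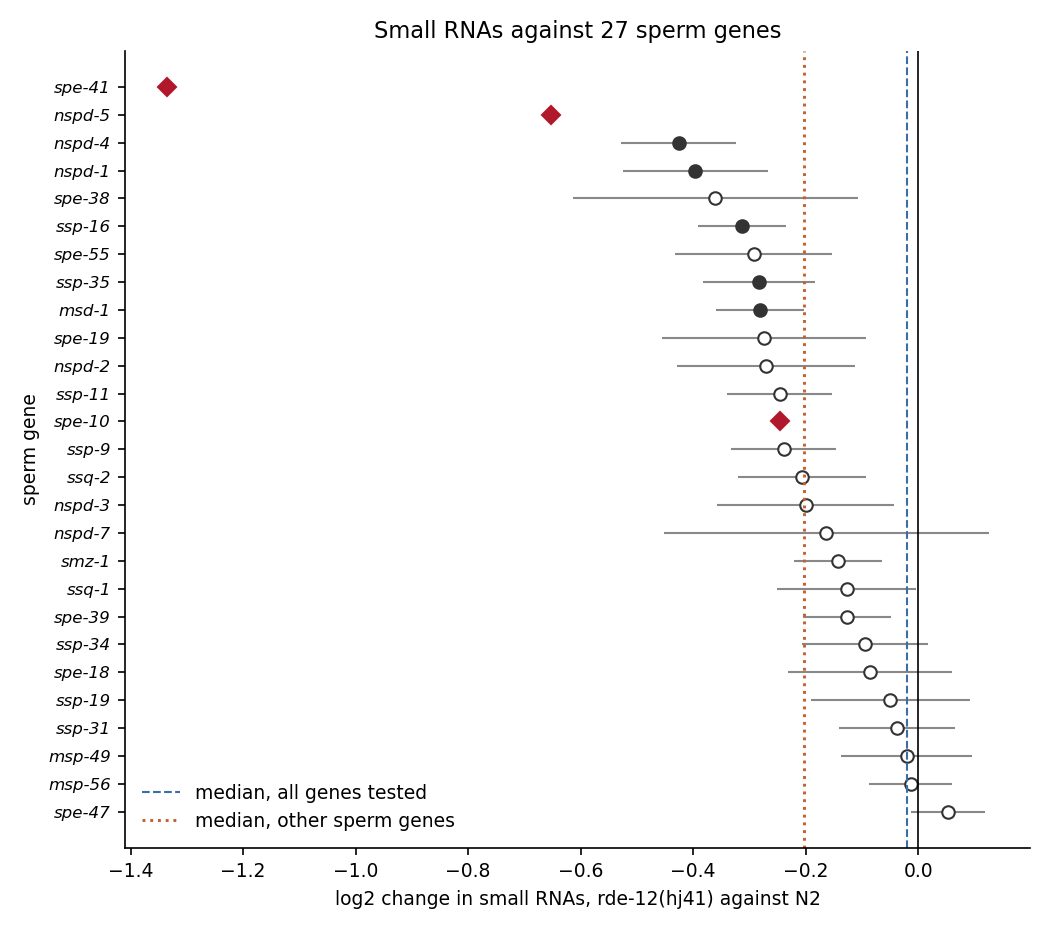
Log2 change in small RNAs, rde-12(hj41) against N2 on OP50, for 27 sperm genes ordered by size. Diamonds are spe-41, nspd-5 and spe-10, which were chosen on this contrast and carry no error bar. Circles are the other 24 genes with their standard errors, filled where edgeR's adjusted p was under 0.05. The dashed line is the median of all genes tested (−0.02) and the dotted line that of the other sperm genes (−0.20). The point for spe-41 lies far to the left of the rest at −1.34.

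Among relatives of nspd-5 in the nspd family, 5 were measured, 2 fell and 0 rose in edgeR's test, beside 13.9% and 13.8% of all genes. DESeq2 called 1 lower and 0 higher, beside 8.13% and 10.7% of all genes. For nspd-4 (T23B7.1) the level went down from 79.1 ± 4.46 CPM in wild type to 58.7 ± 5.30 in the mutant (SD, n = 2 each; log2 change −0.43 ± 0.102 (SE), edgeR adjusted p = 0.00558). This call held in every alternative run on it. For nspd-1 (ZK484.8) it fell from 32.2 ± 1.46 CPM to 24.5 ± 1.03 in the mutant (log2 change −0.40 ± 0.129, edgeR adjusted p = 0.0318), a call that ended in 6 of its 11 alternatives, among them leaving out N2 replicate 1 (adjusted p = 0.178) or rde-12 replicate 1 (0.181), and DESeq2 (0.282). The other 3 did not pass, with log2 changes of −0.27 for nspd-2, −0.20 for nspd-3 and −0.16 for nspd-7. Their depth was low, at 20.6, 19.8 and 8.30 CPM in N2. In gene order, nspd-4 lies 4 genes before nspd-5 on the opposite strand. The exons add up to 216 nt in nspd-4 and nspd-5, as in nspd-3, and to 213 nt in nspd-1, nspd-2 and nspd-7. No source used here says how reads that match several copies were counted, so the separate values of nspd-5 and its relatives are uncertain.

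Among the other genes named spe, 6 were measured. Neither edgeR nor DESeq2 called any (0 of 6), and 0 had a p under 0.05 before adjustment. Over all genes, 13.9% fell and 13.8% rose in edgeR, 8.13% and 10.7% in DESeq2, and 20.2% and 19.4% before adjustment. With 6 genes, 0 calls do not set the spe genes apart from other genes. The 6 include spe-38, which encodes a membrane protein needed to place SPE-41 at the surface of active sperm. Its small RNAs were few, at 9.82 ± 1.89 CPM in wild type and 7.78 ± 2.27 CPM in the mutant (log2 change −0.36 ± 0.254, edgeR adjusted p = 0.317). A change of that gene as large as that of nspd-5 lies little more than 1 SE away. For spe-47, which encodes a protein with a major sperm protein domain, the level was 249 ± 3.08 CPM in wild type and 258 ± 19.1 CPM in the mutant (log2 change 0.05 ± 0.0656, edgeR adjusted p = 0.593). It was the only 1 of the 24 with a log2 change above 0. The others were spe-55 at −0.29, spe-19 of the sperm activation pathway at −0.27, spe-39 of vesicle transport at −0.13 and spe-18 at −0.09.

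The remaining falls were in other families of sperm proteins. Small RNAs against ssp-16 (T27A3.3), of the sperm-specific class P family, fell from 206 ± 9.44 CPM to 167 ± 20.3 in the mutant (log2 change −0.31 ± 0.0782, edgeR adjusted p = 0.00705). The call ended when N2 replicate 1 (0.0796) or rde-12 replicate 1 (0.149) was left out. Those against ssp-35 (F55C5.1) fell by 0.28 on the log2 scale (edgeR adjusted p = 0.0466), a call that ended in 7 of its 11 alternatives, among them DESeq2 (0.245). Those against msd-1 (F44D12.3), which encodes a protein with a major sperm protein domain, also fell by 0.28 (edgeR adjusted p = 0.0143), and the call ended when N2 replicate 1 (0.137) or rde-12 replicate 1 (0.146) was left out, and with DESeq2 (0.111). In the ssp family edgeR called 2 of 7 measured genes lower, and of the msp, msd and smz genes 1 of 4, beside 13.9% of all genes. DESeq2 called 1 of 7 and 0 of 4 lower, beside 8.13% of all genes. These counts are too small to set the families apart from other genes. Neither of the 2 ssq genes passed. The major sperm protein genes msp-49 and msp-56, which encode the cytoskeletal protein of the crawling sperm and were picked after their values were seen, had log2 changes of −0.02 and −0.01. These families hold near-identical copies, so their separate values are uncertain as well. The level of smz-1, a PDZ-domain protein gene of sperm meiosis, was 177 ± 9.20 CPM in wild type and 161 ± 17.9 in the mutant (log2 change −0.14, edgeR adjusted p = 0.193).

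By protein family, spe-41 and spe-10 had 1 measured relative each. The TRP channel gene trp-4 (Y71A12B.4), known for mechanosensation in neurons, had counts of 3711 and 3841 in N2 and 1896 and 1473 in rde-12. Its level was 881 ± 0.520 CPM in wild type and 337 ± 10.7 CPM in the mutant (SD, n = 2 each; log2 change −1.39 ± 0.0581 (SE), edgeR adjusted p = 1.23e-11). Both rde-12 libraries lay far below both N2 libraries. The log2 change of trp-4 lay near that of spe-41 (−1.34), which was chosen on this contrast, so the nearness is a description only. Whether the genes share reads was not tested. The palmitoyltransferase gene dhhc-3 (F33D11.12), the measured relative of spe-10, held 68.4 ± 0.437 CPM in wild type and 71.1 ± 9.97 CPM in the mutant (log2 change 0.05 ± 0.108, edgeR adjusted p = 0.776), so its genotypes overlapped like those of spe-10.

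**Figure D3:**
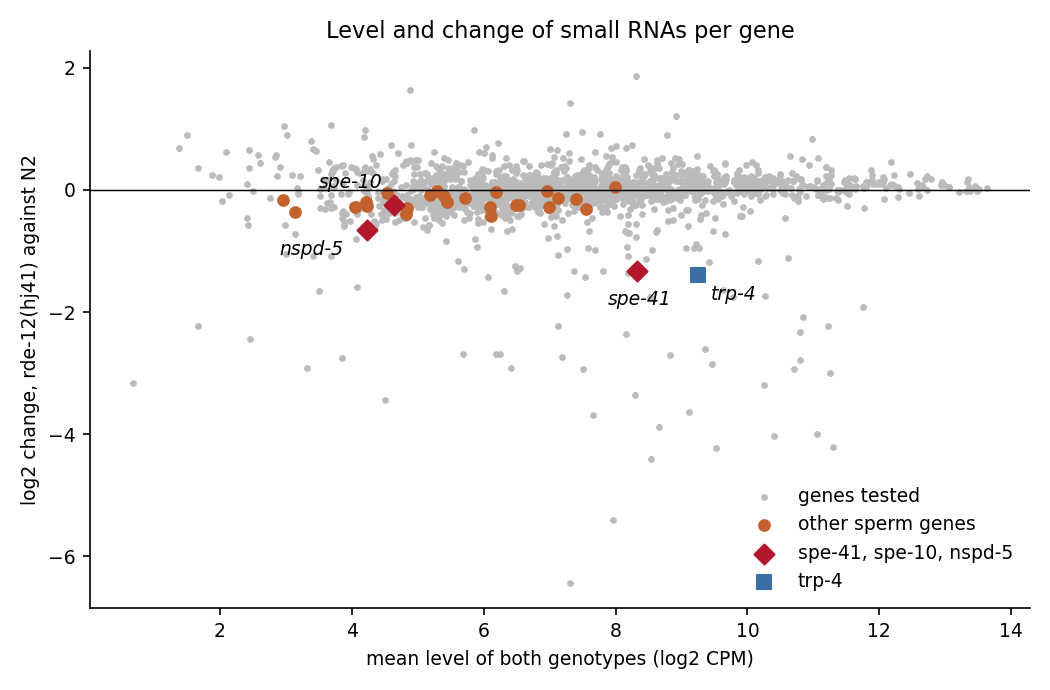
Log2 change (rde-12 against N2) against the mean level of both genotypes in log2 CPM for the 1931 genes tested. Grey points are all genes, orange circles the 24 other sperm genes, red diamonds the 3 sperm genes described and the blue square trp-4. The 3 described genes were chosen on this contrast. The diamond of spe-41 lies beside the square of trp-4, at −1.34 and −1.39, below the other sperm genes, which lie between −0.43 and 0.05.

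Small RNAs against the measured genes next to spe-41 did not pass the test. No gene of the annotation overlaps spe-41, spe-10 or nspd-5 among protein-coding genes and pseudogenes. The next gene after spe-41, K01A11.3, on the same strand, held 1976 ± 89.7 CPM in wild type and 1837 ± 97.5 CPM in the mutant (SD, n = 2 each; log2 change −0.10 ± 0.0605 (SE), edgeR adjusted p = 0.217). Further on, C34C12.2 had a log2 change of −0.02 and C34C12.1 of −0.09, and neither passed the test (edgeR adjusted p = 0.845 and 0.268). The gene on the other side of spe-41 and both genes beside spe-10 were not among the rows of the table. Near nspd-5, besides nspd-4, the table held F11G11.14, at 146 ± 3.31 CPM in wild type and 135 ± 8.12 CPM in the mutant (log2 change −0.12 ± 0.0722, edgeR adjusted p = 0.253). Of the measured neighbours, K01A11.3, C34C12.1, nspd-4 and F11G11.14 had both rde-12 libraries below both N2 libraries, as did 33.4% of all genes tested. The libraries of C34C12.2 overlapped.

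The genes most like each sperm gene over the 4 libraries were found by the root-mean-square difference of log2(CPM + 0.5) profiles, centred on each gene's own mean, among genes of at least 20 CPM. The likeness rests on 4 libraries that all genes share, and is a description. Of 1808 candidates, trp-4 was nearest to spe-41, at a difference of 0.0320, followed by F36A2.3 (0.0362), C40A11.10 (0.0482), which the RefSeq table names mir-8199, eri-12 (B0001.6; 0.0491) and F52D2.6 (0.0616). Their log2 changes ran from −1.39 for trp-4 to −1.30 for C40A11.10. None of these 5 is a gene of the sperm list.

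Nearest to nspd-5, of 1809 candidates, were B0432.11 (0.0843), K07F5.6 (0.0844), F55D12.6 (0.0869), bbs-4 (F58A4.14; 0.0896) and jip-1 (F56D12.4; 0.0896). Their log2 changes ran from −0.64 for bbs-4 to −0.48 for F55D12.6. Nearest to spe-10 were M117.4 (0.0274), C17G10.3 (0.0275), Y57G11C.8 (0.0353), F56G4.6 (0.0377) and W03C9.8 (0.0475). In each of these 5, as in spe-10, rde-12 replicate 1 was the lowest of the 4 libraries. The largest loss among them was 0.29 on the log2 scale, for M117.4, from 112 ± 2.97 to 92.9 ± 18.7 CPM, and none of the 5 passed edgeR's test (adjusted p from 0.0651 to 0.236).

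**Figure D4:**
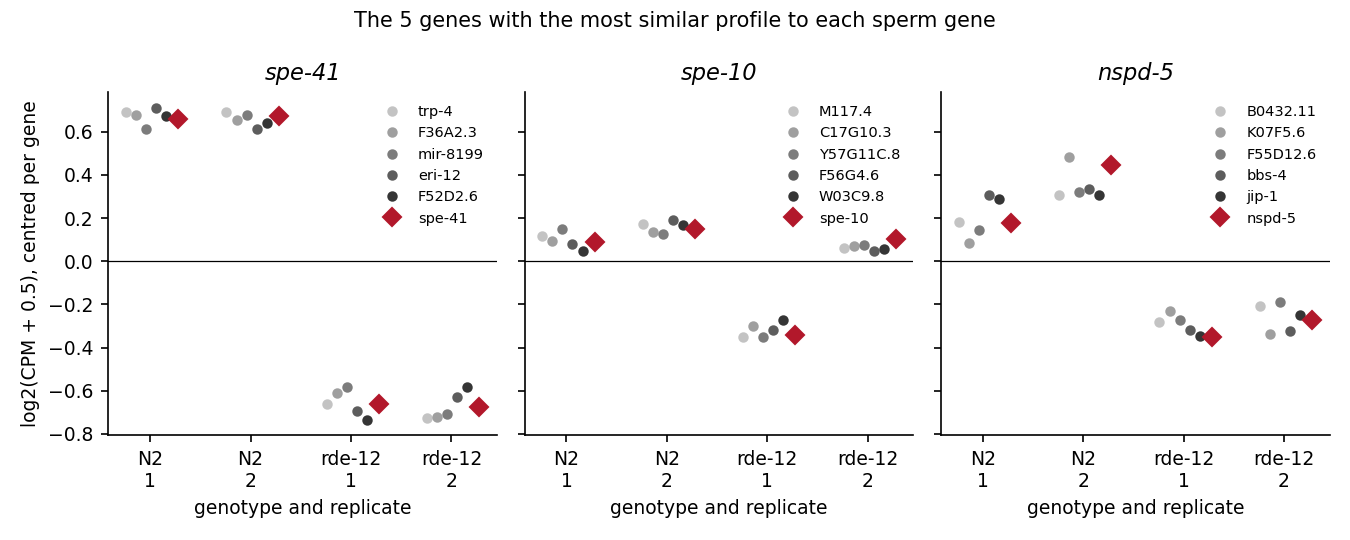
Profiles of spe-41, spe-10 and nspd-5 (red diamonds) and of the 5 genes nearest to each (grey circles) over the 4 OP50 libraries, as log2(CPM + 0.5) centred on each gene's mean. Points within a library are set side by side for sight only. The spe-41 group is high in both N2 libraries and low in both rde-12 libraries, whereas in the spe-10 group rde-12 replicate 1 alone lies low.

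Beside the sperm genes, the lists of germline and oocyte genes and of genes of tissues outside the germline were small. Of 6 measured genes of the germline and oocyte list, edgeR and DESeq2 each called 0, and before adjustment 1 was lower and 1 higher at a p under 0.05. Over all genes, 13.9% fell and 13.8% rose in edgeR, 8.13% and 10.7% in DESeq2, and 20.2% and 19.4% before adjustment. The median log2 change of the 6 genes was 0.08. Their summed level was 3348 and 3550 CPM in N2 and 3651 and 3562 CPM in rde-12. Small RNAs against 3 of 3 measured collagen genes of the cuticle rose in edgeR's test, where 13.8% of all genes did, with a summed level of 1668 and 1702 CPM in N2 and 2423 and 2246 CPM in rde-12. None of these 9 genes was at 0. Lists of yolk and muscle genes had 0 members among the rows. The part of these other targets in the values of the sperm genes was not tested.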

How the data were processed

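Small RNA of 20 to 26 nt was cut from gels, treated with TAP and made into libraries with a ScriptMiner kit, per the labels' protocols. The submitters' processing notes name TopHat 1.4.1, SAMtools and bedtools. No source used here gives the genome build, annotation, strand, treatment of reads with several matches or choice of genes. As deposited, the gene table has raw counts, whole numbers per gene, in 1959 rows. The 22 rows that repeat another were counted once, which leaves 1937 genes, of which 1900 matched a RefSeq gene table for names. Totals over these selected genes are not whole-library depths, and ranged from 4270098 to 5563151. The deposited counts over sel-1 regions were not used.

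The test was that of edgeR 4.0.16 under R 4.3.3 (filterByExpr, TMM factors, quasi-likelihood test, Benjamini-Hochberg adjustment over 1931 genes, threshold 0.05), with genotype as the factor and groups from the sample titles. A standard error is the size of the log2 change over the root of F. CPM are counts scaled to library size with TMM factors. A chi-square test found replicates further apart than sampling noise (3.50 per degree of freedom for N2 and 4.13 for rde-12), so no library looked like a repeat deposit. The p-values measure the spread between samples that the labels call biological. On simulated data for this comparison over 1937 genes the test called 76.0% of genes changed 1.25-fold, 100% at 1.5-fold and 98.0% at 2-fold. There were 6 false calls among 193. The simulation gave every gene the same variation beyond counting error, 4.06%, and drew the changed genes from all levels. The percentages are therefore not those of genes with few counts or a wider spread.

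The 3 genes, the lists and the rule for named genes were chosen with earlier results of these data known. Named were the 3 genes, the other sperm genes that passed the test, the 3 of highest CPM in N2 and all called spe, fer or nspd, measured neighbours within 20 kb, measured TRP and dhhc genes, and the 5 nearest in profile. The genes msp-49 and msp-56 fall outside this rule. Alternatives were DESeq2 1.42.0 and its size factors, library totals, upper-quartile factors, no filter, repeated rows kept, a replicate block and leaving out each library.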

Additional observations from a re-analysis of the deposited data

How the results depend on the processing

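Of 103 alternative values other than those of single called genes, 91 stayed within the spread between replicates or, for counts, within 1.5 times. Another 12 moved further, and 0 changed sign beyond that spread. Within its spread of 0.267, the log2 change of spe-10 against other sperm genes turned from −0.08 to 0.10 without rde-12 replicate 1. The log2 change of spe-41 was −1.31 with library totals and −1.285 with upper-quartile factors, larger moves than its replicate spread of 0.0138, and its change against other sperm genes went from −1.18 to −1.31 when set against all genes outside the sperm list. With a library left out it ran from −1.335 to −1.329, that of nspd-5 from −0.77 to −0.51 and that of spe-10 from −0.47 to −0.01; against other sperm genes the ranges were −1.23 to −1.13, −0.64 to −0.33 and −0.27 to 0.10. The 5 other sperm genes called lower became 3 with library totals, 3 with upper-quartile factors and 2 with DESeq2, and ran from 1 to 7 with a library left out (median log2 change −0.29 to −0.11). Single called genes kept their call in 37 of 55 alternatives. Over all genes 268 fell and 267 rose; DESeq2 called 157 lower, and with a library left out 175 to 304 fell and 165 to 308 rose. With library totals falls made up 39.9% of calls and with upper-quartile factors 35.3%, against 50.09%. The cause of these moves was not tested; a left-out library also leaves 3 samples, with the lone sample taken to vary like the other group. Same-numbered replicates deviated together with a correlation of 0.02, so the numbers are not taken as pairs; with the replicate block 3 other sperm genes were called lower. Depth limits nspd-5, spe-10 and the other genes with few counts.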
